A study of Drosophila melanogaster with 3 samples.

Results

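Of 369 non-coding genes with CR symbols that the Bsh:Dam gene lists named in at least 1 replicate, 186 (50.4%) had a highest peak score above 2.5 in all 3 replicates, and these 186 genes are described here. They were chosen by that score, over symbols made of CR and 5 digits with or without the prefix lncRNA: or asRNA:. The same limit was met by 1736 of 3216 listed gene symbols (54.0%) and by 1488 of 2705 listed protein-coding symbols (55.0%). Against the annotation, 6.86% of 2698 CR genes met it, and so did 10.6% of 13922 protein-coding genes and 9.75% of all 17684 genes. Because the score chose these genes, their scores and all these shares are given as a description, with no test.

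L4 neurons are one of the lamina neuron types of the Drosophila visual system, and the study asked where the homeodomain transcription factor Bsh binds in them while they form synapses. A UAS-Bsh:Dam transgene, read at a low level behind a GFP open reading frame, was expressed with R31C06-Gal4 (the L4 driver), together with tubP-Gal80ts and UAS-myr-tdTomato, in a window that opened at 46 hr and closed at 76 hr APF (after pupa formation), and laminae of many pupae were pooled for each sample. The 3 samples are biological replicates of this 1 condition. Dam alone, driven in the same way, enters only as the denominator of the log2 ratio from which peaks were called, so no group is compared with another. The lists hold binding and no RNA, so neither the L4 label nor the expression of any CR gene could be checked against markers.

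In Targeted DamID the bacterial Dam methylase, fused to a DNA-binding protein, methylates adenine at GATC sites near the places that the protein visits, and the methylated fragments are sequenced. FlyBase gives CR symbols to genes without a known protein product, mostly long non-coding RNAs (lncRNAs), RNAs antisense to another gene, and pseudogenes. Many lncRNA genes lie next to or inside protein-coding genes, so a peak beside one is often also a peak beside its neighbour, and most fly lncRNAs have no assigned function.

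The first question is therefore whether a score belongs to the CR gene alone. In the deposited lists each peak gave its score to every gene within 1 kb. The highest score was the same as that of a listed protein-coding gene at the same peak, in every replicate, for 139 of the 186 CR genes (74.7%). The other 47 (25.3%) are called here genes with a peak of their own. Of these 47, 12 shared the peak in every replicate with another non-coding gene only. For the other 35, no listed gene shared the peak in all replicates. Looking for equal scores wherever the coding gene lies, or for an annotated coding gene within 1 kb of the peak whatever the score, put all 186 genes in the same class, as long as the coding gene had to be the same one in every replicate. This agreement was mostly fixed in advance, since the lists give each score to the genes within 1 kb.

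A peak of their own is a statement about the distance of 1 kb. When only coding genes that the peak itself overlaps were counted, 66 CR genes had no such gene, and when coding genes within 5 kb were counted, 26 had none. Of the 139 genes with a shared score, 120 had a best peak that overlaps a coding gene and 19 had one that lies beside it within 1 kb. The pseudogene CR32745 is among the 47, and among the 35, only because its best peak changed between replicates. That peak lies at CG11700 in replicates 1 and 3 and near the ubiquitin gene Ubi-p5E in replicate 2, and every peak of CR32745 lies within 1 kb of a coding gene. Counted with the shared scores, it leaves 46 genes with a peak of their own.

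CR genes with a peak of their own had median scores close to those of the others. Their median scores were 3.47, 3.47 and 3.36 in replicates 1, 2 and 3, against 3.52, 3.60 and 3.37 for CR genes with a shared score. Over all 186 the medians were 3.51, 3.575 and 3.365, against 3.53, 3.58 and 3.34 for all 1736 symbols above the limit. These sets were all chosen by the same limit on the score. The mean over the 186 genes was 3.49 ± 0.105 (SD, n = 3 replicates), and the median SD of a single gene between replicates was 0.166. Replicate 3 gave the lowest of the 3 scores for 123 genes, replicate 1 for 37 and replicate 2 for 22, with 4 ties. In all, 32 CR genes had a mean score above 4. They were 14 of the 47 genes with a peak of their own and 18 of the 139 with a shared score. Some of them share 1 peak, and these shares were not compared by a test.

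**Figure D1:**
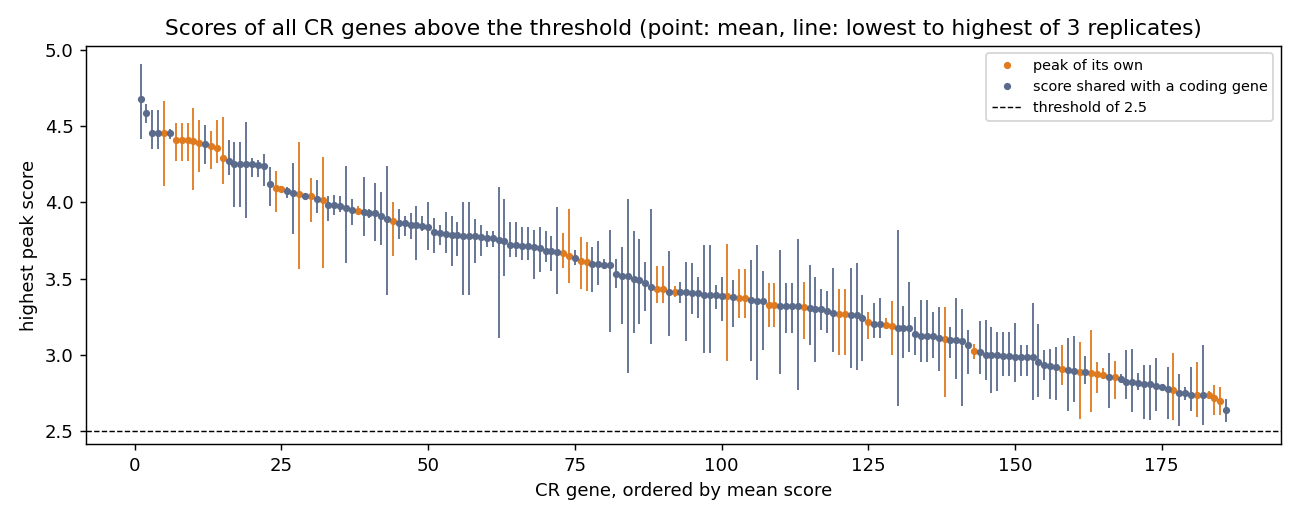
Highest peak score (vertical axis) of the 186 CR genes above 2.5 in every replicate, ordered by mean (horizontal axis). Points are means and lines run from the lowest to the highest of the 3 replicates, with the 47 genes that have a peak of their own in orange and the 139 with a shared score in blue-grey; both kinds occur along the whole range.

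Among CR genes with a peak of their own, CR46006 had the highest mean score. Its scores were 4.67, 4.59 and 4.11 in replicates 1, 2 and 3 (mean 4.46 ± 0.303, SD, n = 3), from a peak at the same position in every replicate, on chromosome 3L from 10330798 to 10331719 (the files name no genome build, here and for all positions below). Among all listed symbols that peak ranked 17th, 29th and 184th, so the gene kept its place near the top in replicates 1 and 2 and stood lower in replicate 3.

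CR46006, a gene of 43950 bp, also has the most peaks in this class. The lists hold 6, 5 and 7 peaks within 1 kb of it (5, 5 and 4 of them with a score over 2.5), and none of them lies within 1 kb of a protein-coding gene. Its nearest coding neighbours are Or67d, an odorant receptor that responds to a male pheromone, and CG12362. The second peak, from 10335678 to 10336419, scored 3.66, 3.81 and 3.54 in replicates 1, 2 and 3. Another, from 10344746 to 10345759, scored 3.75, 3.56 and 3.39. These and the highest peak have the same borders in all 3 replicates. A peak that ends at 10360617 scored 3.47, 3.57 and 2.74, with another start in replicate 3, and so passed the limit in every replicate. A peak from 10348379 to 10350641 lay around the limit, with 2.53, 2.65 and 2.45. A further peak, called only in replicate 3 from 10365457 to 10367120, scored 1.48 and is the only one within 1 kb of the microRNA gene mir-276a. Of 8 CR names in the study's lists of genes transcribed in L4 neurons, CR46006 is the only one above the limit. The other 7, matched by symbol, are in none of the 3 gene lists. The names come from both of its lists, which the study had split by Bsh peaks from these same data. Of all annotated CR genes 6.86% were above the limit, and 8 names are too few to set against that share.

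**Figure D2:**
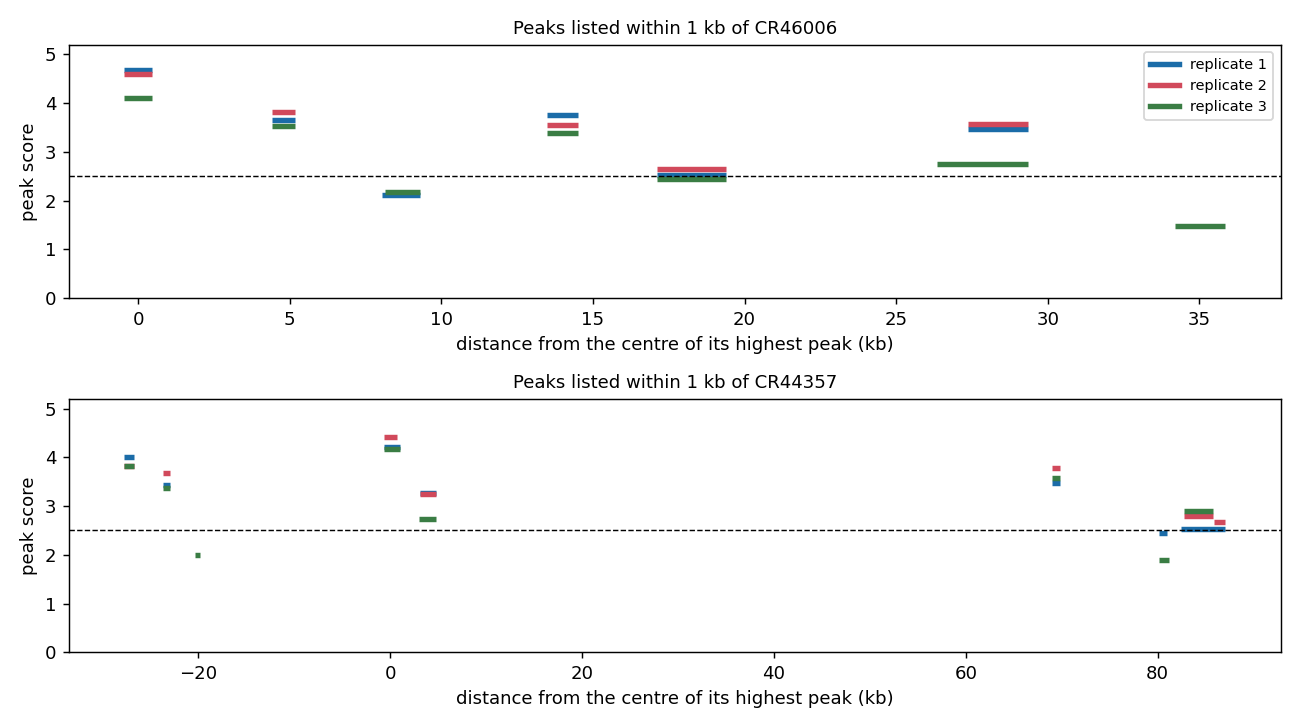
Every peak listed within 1 kb of CR46006 (top) and CR44357 (bottom), drawn to scale by its distance in kb from the centre of the gene's highest peak (horizontal axis) and by its score (vertical axis), for the 3 replicates. The dashed line is the limit of 2.5; at CR46006 the highest peak scored 4.67, 4.59 and 4.11 in replicates 1, 2 and 3, and at CR44357 it scored 4.22, 4.41 and 4.18.

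The next 3 lncRNA genes share 1 peak. CR43839, CR45722 and CR45723 lie between tj, which encodes the large Maf transcription factor Traffic jam, and CG10195. Their common peak, on chromosome 2L from 19470107 to 19470849, scored 4.52, 4.45 and 4.27 in replicates 1, 2 and 3 (4.41 ± 0.129). These 3 symbols therefore stand for 1 measurement, and the peak overlaps CR43839 and CR45723 but not CR45722.

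The other strong peaks of this class lie more than 1 kb from coding genes of varied roles. CR43859, between the calcium channel subunit gene Ca-beta and abrupt (ab), a BTB zinc finger gene known for its part in dendrite growth, had 4.62, 4.51 and 4.08 in replicates 1, 2 and 3. CR45247, between CG42831 and tonalli (tna), had 4.54, 4.43 and 4.20. CR42844, between the phototransduction G protein subunit gene Ggamma30A and CG17005, had 4.47, 4.43 and 4.22. All 3 of these scored lowest in replicate 3, and in none of them did the best peak overlap the CR gene itself.

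CR44206, between CG17047 and CG17048, had 4.27, 4.54 and 4.26 in replicates 1, 2 and 3. CR45958 lies between CG7370 and eagle (eg), a nuclear receptor gene that specifies serotonergic neurons, and had 4.12, 4.56 and 4.20. CR44452, between CG12934 and starry night (stan), an atypical cadherin gene of planar polarity and axon targeting, had 4.21, 4.14 and 3.94. CR44206 and CR45958 scored highest in replicate 2 and CR44452 in replicate 1. Naming the gene on either side says only where a peak lies, since the lists hold no measure of which gene it acts on.

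**Figure D3:**
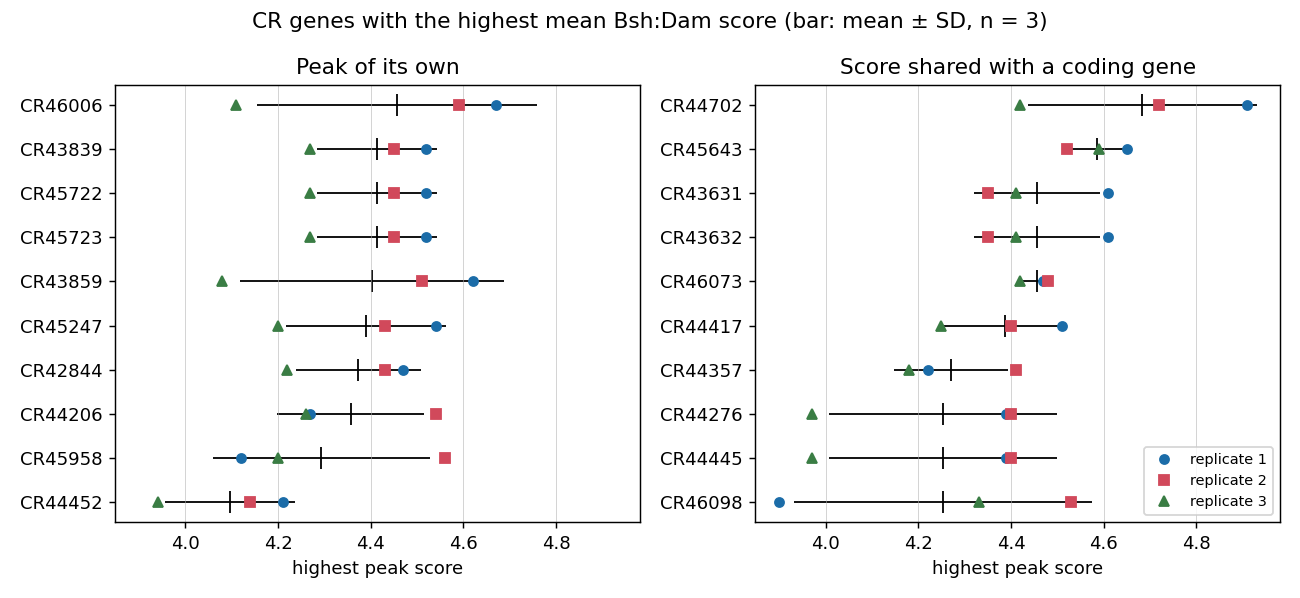
Highest peak score (horizontal axis) in replicates 1, 2 and 3 of the 10 CR genes with the highest mean among those with a peak of their own (left) and among those with a score shared with a coding gene (right). Black bars are mean ± SD (n = 3); CR46006 leads the left panel with a mean of 4.46 and CR44702 the right with 4.68, and genes with equal points share 1 peak.

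Among CR genes with a shared score the highest was CR44702, an lncRNA gene beside CG17839. It had 4.91, 4.72 and 4.42 in replicates 1, 2 and 3 (4.68 ± 0.247), ranks 3, 12 and 52 of all listed symbols, on chromosome 3L from 14883044 to 14884562. The peak does not overlap the lncRNA gene itself. CR45643 shares its peak with taranis (tara), a regulator of transcription and the cell cycle that is also needed for normal sleep. It had 4.65, 4.52 and 4.59 (4.59 ± 0.0651), a narrow spread, and in replicate 3 it was the highest of all 186 genes.

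CR43631 and CR43632 share 1 peak at CG31093, with 4.61, 4.35 and 4.41 in replicates 1, 2 and 3. CR46073 lies inside Lerp, which encodes a receptor for lysosomal enzymes, and had 4.47, 4.48 and 4.42. CR44417 lies inside Mapmodulin and had 4.51, 4.40 and 4.25. CR46073 had the smallest SD of these genes, 0.0321, and the peaks of all of them have the same borders in every replicate.

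CR44276 and CR44445 share 1 peak near peanut (pnut), a septin gene, with 4.39, 4.40 and 3.97 in replicates 1, 2 and 3. CR46098 lies between Bili and distal antenna-related (danr), a gene for a nuclear protein of eye and antennal development, and had 3.90, 4.53 and 4.33. The order of the replicates differs between them: replicate 3 is lowest at pnut and replicate 1 is lowest at danr.

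CR44357 had more peaks than any other of the 186 genes. It is also the longest of them, at 239347 bp against a median length of 783.5 bp. Peaks were counted along the whole gene, and whether their number follows gene length was not tested. Within 1 kb of CR44357 lie 7, 7 and 8 peaks in replicates 1, 2 and 3, and 6, 7 and 6 of these passed the limit. Each of them also lies within 1 kb of a coding gene. The highest, on the X chromosome from 7221533, scored 4.22, 4.41 and 4.18 (4.27 ± 0.123) and lies at CG9650, now named Chronophage (Cph), a zinc finger transcription factor gene. Further along, the peak from 7291164 to 7292014 lies near CG1677 and unc-119 and scored 3.47, 3.79 and 3.57. The broad region from 7304623 to 7309267 lies near CG1677 and brinker (brk), a repressor gene in Dpp signaling, and was called as 1 peak of 2.53 in replicate 1, as 2 peaks of 2.80 and 2.67 in replicate 2, and in part, with 2.90, in replicate 3.

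After CR44357 and CR46006, CR43836, a gene of 76084 bp, had the most, with 4, 5 and 4 peaks in replicates 1, 2 and 3. Its highest, on the X chromosome from 9045013 to 9045366, scored 3.88, 4.04 and 4.04 and lies at CG42388, now Nostrin (Nost). Another lies near rdgA, a diacylglycerol kinase gene of photoreceptors, and near the microRNA gene mir-31b, and scored 3.39, 3.70 and 3.27. CR45551 had 4, 3 and 3 peaks, none within 1 kb of a coding gene, but only its best peak scored above 2.5, with 3.34, 3.58 and 3.37. Most CR genes had fewer: 158 of 186 had 1 peak in every replicate. Among them were 37 of the 47 with a peak of their own and 121 of the 139 with a shared score.

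Kind of gene and class went together. All 40 antisense RNA genes had a shared score, as did 95 of the 139 genes annotated as lncRNAs (68.3%) and 3 of the 6 pseudogenes. Antisense genes by definition overlap another gene. The remaining symbol, CR43051, is now annotated as protein-coding, lies inside bunched (bun) and had 3.88, 3.96 and 3.76 in replicates 1, 2 and 3. Of all annotated CR genes of each kind, 7.95% of antisense RNAs, 7.1% of lncRNAs and 2.52% of pseudogenes were above the limit in every replicate.

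The position of the CR genes themselves showed the same split. Among the 47 with a peak of their own, 42 (89.4%) overlap no protein-coding gene, 5 overlap one in part and 0 lie inside one. Among the 139 with a shared score, 39 (28.1%) overlap none, 31 overlap one in part and 69 lie inside one. This position was partly fixed by how the classes were made. Over all 186, 37.1% lie inside a coding gene and 43.5% overlap none, against 28.8% and 58% of all annotated CR genes. The best peak overlapped the CR gene itself in every replicate for 107 genes, 28 with a peak of their own and 79 with a shared score. For the other 79 it lay beside the gene, within 1 kb, in at least 1 replicate.

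The 186 genes lie on all 6 chromosomes with peaks, with 41 on 2L, 35 on 2R, 34 on 3L, 46 on 3R, 1 on the fourth chromosome and 29 on the X. Of the annotated CR genes of each chromosome, between 3.23% on the fourth and 7.92% on 2R were above the limit. The genes with a peak of their own numbered 16 on 2L, 11 on 2R, 8 on 3L, 8 on 3R and 4 on the X. Those with a shared score numbered 25 on 2L, 24 on 2R, 26 on 3L, 38 on 3R, 1 on the fourth and 25 on the X. Genes that share 1 peak are each counted here.

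Because neighbouring genes share peaks, 186 symbols are fewer measurements. Their best peaks were 169, 168 and 169 distinct peaks in replicates 1, 2 and 3, of which 41 in each replicate belonged to genes with a peak of their own. In 16 sets, 33 CR genes shared 1 best peak in every replicate, and the largest set is that of the 3 genes near tj. Of all peaks above 2.5, 56 of 2145 (2.61%), 63 of 2251 (2.8%) and 50 of 1877 (2.66%) lay within 1 kb of a CR gene and no coding gene. Those near both a CR gene and a coding gene were 176, 181 and 152.

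**Figure D4:**
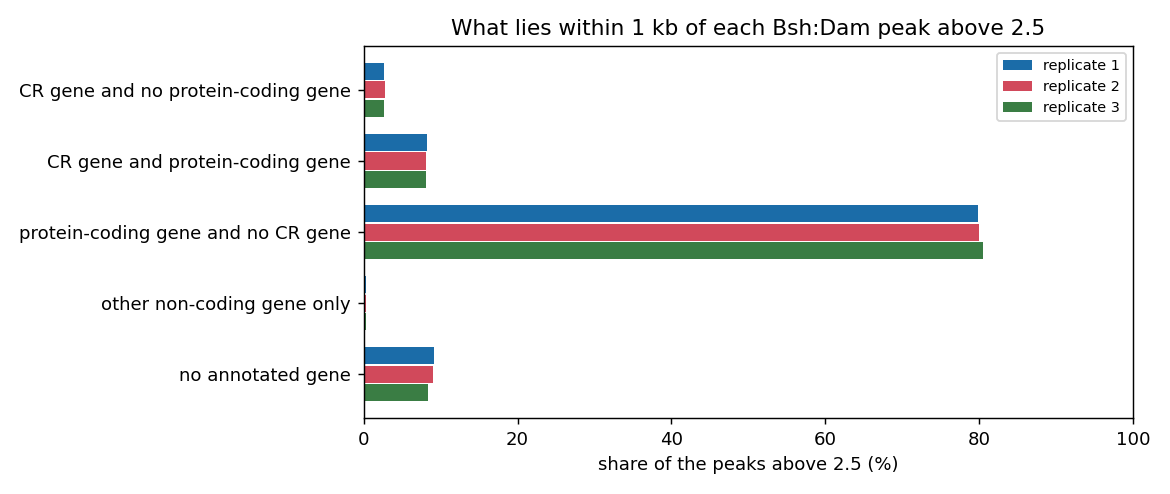
Share in percent (horizontal axis) of the peaks above 2.5 in each replicate by what the annotation has within 1 kb of the peak (vertical axis). Bars start at 0; peaks near a CR gene and no coding gene made up 2.61%, 2.8% and 2.66% in replicates 1, 2 and 3, against about 80% near a coding gene and no CR gene (79.8%, 79.9% and 80.5%).

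The 139 shared scores belonged to 172 protein-coding genes. Of the 139 CR genes, 96 shared a score with 1 coding gene, 37 with 2 and 6 with 3. For 140 of the 172 coding genes the shared peak was their highest in every replicate, and for 32 a higher peak lay elsewhere in at least 1 replicate. The coding genes were grouped by known role after they had been seen, for those whose role is well known, so the groups are not complete, have no background and only describe some of the neighbours.

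Transcription and chromatin factors formed the largest of these groups, with 22 coding genes and 23 CR genes, whose mean scores ran from 2.74 to 4.59 with a median of 3.77. Besides tara, Cph and danr, described above, it holds lola, a BTB zinc finger gene of axon guidance, whose antisense gene CR45135 had 4.28, 4.32 and 4.11 in replicates 1, 2 and 3. CR30055, inside the corepressor gene Sin3A, had 4.13, 4.26 and 3.79. CR43643 and CR43644 share 1 peak near E(spl)m3-HLH, a Notch target of the bHLH repressor family, with 3.81, 3.78 and 3.71. The lowest of the group, CR43957, is antisense to the Hedgehog effector cubitus interruptus (ci) and is the only one of the 186 on the fourth chromosome, with 2.63, 2.92 and 2.66.

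RNA-binding proteins were few, with 4 coding genes and 4 CR genes and mean scores of 3.35 to 4.24. CR45196, inside the translational repressor gene pumilio (pum), had 4.28, 4.28 and 4.17 in replicates 1, 2 and 3. CR43878, inside mushroom-body expressed (mub), had 4.15, 4.23 and 3.98. CR45910, inside musashi (msi), had 3.52, 3.76 and 3.20. The lowest of the group, CR43433, antisense inside Rbp6, had 3.51, 3.72 and 2.83. The pum and mub neighbours were above 3.9 in every replicate, and the msi and Rbp6 neighbours were not.

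Cell surface and guidance genes numbered 7, with 7 CR genes and mean scores of 3.02 to 3.79. CR43960 lies inside Teneurin-a (Ten-a) and CR45962 inside Teneurin-m (Ten-m), which encode synaptic partner-matching proteins of the teneurin family. CR43960 had 3.85, 3.82 and 3.65 in replicates 1, 2 and 3, and CR45962 had 3.59, 3.27 and 3.06. CR44373, inside the midline repellent gene slit (sli), had 3.38, 3.39 and 2.96. In all 3, replicate 3 was lowest.

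Synaptic and signaling genes numbered 6, with 6 CR genes and mean scores of 2.81 to 3.84. CR45597, near complexin (cpx), a clamp of synaptic vesicle fusion, had 3.91, 3.81 and 3.81 in replicates 1, 2 and 3. CR45141 is antisense at a peak shared by Nmda1, a glutamate receptor subunit gene, and a tRNA synthetase gene, and had 3.50, 3.62 and 2.96. Of 16 genes picked from the study's DamID genes and lamina markers, 0 shared a score with any of the 186 CR genes. The pick left out pdm3 and zfh1. Among all protein-coding symbols above the limit, 172 of 1488 shared a score with a CR gene. The count for the 16 genes is therefore a description only. CR44891 and CR44892, antisense to silver (svr), have the pan-neuronal gene elav as their nearest coding neighbour on one side, with 3.34, 3.47 and 3.14.

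In 4 CR genes the score was also that of a listed microRNA gene: CR45478 with mir-2496, CR46194 with mir-281-1 and mir-281-2, CR45917 with mir-92b, and CR45910 with mir-1000. CR46194, antisense to ornithine decarboxylase antizyme (Oda), had 3.99, 4.15 and 3.93 in replicates 1, 2 and 3. All 4 also shared their peak with a coding gene.

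The replicates mostly placed the best peak at the same site. A gene was chosen only with a peak within 1 kb of it in every replicate, and most had 1 peak, so much of this overlap was fixed by the choice. In 182 of 186 CR genes (97.8%) the best peaks of all 3 replicates overlapped by at least 1 bp, 46 of 47 with a peak of their own and 136 of 139 with a shared score. At least 50% of each peak was shared in 164 (88.2%), and both borders were identical in 91 (48.9%). The 4 exceptions are CR32745, CR45939, CR46035 and CR46257.

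At CR46035, inside osa, which encodes a subunit of the Brahma chromatin remodeling complex, replicates 1 and 3 had 4.02 and 3.66 at a peak from 17706024, and replicate 2 had 2.88 at a peak from 17703417 to 17705791 on chromosome 3R. Replicate 2 also had a peak of 4.19 from 17706892 to 17708370, at the site of the other replicates, which lies more than 1 kb from CR46035 and was listed for osa. At CR46257, inside CG1814, replicates 1 and 3 had 4.10 and 4.05 and replicate 2 had 3.11 at a neighbouring peak. There too replicate 2 had a peak at the site of the others, with 4.15, more than 1 kb from the CR gene. At CR45939, with peaks that overlap the nuclear receptor gene ftz-f1, the best peak moved while the scores stayed at 3.89, 3.85 and 3.60. The SDs of CR46035 and CR46257, 0.583 and 0.558, are among the only 4 above 0.5, but the peak at the shared site was no lower in replicate 2 than in the other replicates, and only its distance to the CR gene passed 1 kb.

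Width was not used to choose the genes either. The median best peak was 1452, 1490 and 1460 bp wide in replicates 1, 2 and 3 (mean of medians 1467 ± 20.0 bp), against 1488, 1526 and 1346 bp for all peaks above 2.5 (1453 ± 94.9 bp). For genes with a peak of their own the mean of medians was 1485 ± 10 bp, and for those with a shared score 1459 ± 19.9 bp, a difference little larger than the spread between replicates. The widest belong to CR43820, antisense inside quick-to-court (qtc), to CR44313 and to CR44019.

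Wider best peaks had lower scores. Over the distinct best peaks Spearman's rho between width and score was -0.396 (n = 169), -0.439 (n = 168) and -0.470 (n = 169) in replicates 1, 2 and 3. Over all peaks above 2.5 it was -0.357, -0.403 and -0.382. Peaks of 1 replicate share a library, a normalization and a peak caller, so these values are descriptions across peaks. The same direction appeared within single genes. Among CR genes whose best peaks overlap in all replicates, 37 had a widest call more than 1.5 times as wide as the narrowest. CR32745 and CR46257, whose best peaks do not overlap, were left out. The widest call had the lower score in 30, the higher in 6 and an equal one in 1, with a median difference of -0.28. CR44189 and CR46209, both among those with the higher score, share 1 best peak. Where 2 replicates had calls of equal width, 1 of them was taken. At CR44189, CR46209 and CR44206 the other choice would turn the higher score into a lower one.

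CR44019, antisense at CG12163, had the largest SD of all 186 genes, 0.590, and shows this most plainly. Its peak on chromosome 3R ends at 5251905 in every replicate. It was called 4273 bp wide with 3.05 in replicate 1, 1980 bp wide with 3.82 in replicate 2, and 5267 bp wide with 2.66 in replicate 3. Replicate 1 was counted as the widest call in 14 of the 37 genes, replicate 2 in 15 and replicate 3 in 8. Ties in width were counted for 1 replicate only, and replicate 3 tied for the widest in further genes. No single replicate made all the wide calls. Whether the score is an average over the called width was not tested.

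**Figure D5:**
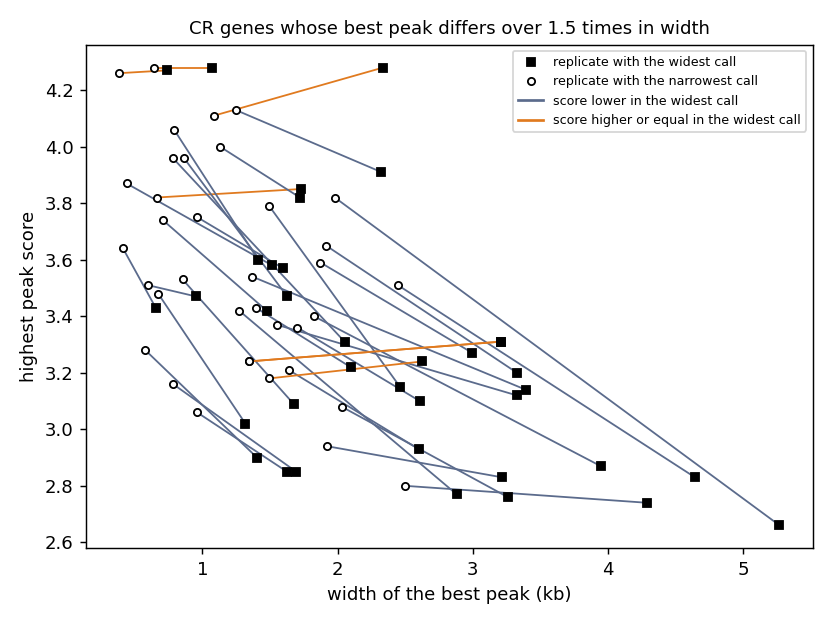
Score (vertical axis) against width in kb (horizontal axis) of the best peak, in the replicate with the widest (squares) and narrowest (circles) call. Points are joined for each of the 37 CR genes whose best peaks overlap between replicates and whose widths differ over 1.5 times. Ties in width are drawn for a single replicate. Lines in blue-grey mark the 30 genes with the lower score in the widest call, and lines in orange the 7 others.

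Near the limit the membership of a gene rested on 1 replicate. The lowest members by their lowest score were CR45297 with 2.87, 2.85 and 2.53 in replicates 1, 2 and 3, CR44748 with 2.61, 3.06 and 2.54, and CR46127 with 2.71, 2.64 and 2.56. Just outside were CR44349 with 2.92, 3.02 and 2.49, CR42755 with 2.63, 2.68 and 2.48, and CR44760 with 2.84, 2.91 and 2.48. In all 6 genes replicate 3 had the lowest score, and these lowest scores lie closer together across the limit than the median SD of 0.166. Above 2.5 there were 235, 249 and 204 CR genes in replicates 1, 2 and 3, and 35 passed in replicates 1 and 2 but not in replicate 3.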

How the data were processed

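Targeted DamID data of 3 replicates of 1 group were used as 1 peak list and 1 gene list each. The authors checked reads with FastQC 0.11.9, made log2 ratios of Bsh:Dam over Dam with damidseq, called peaks per replicate with find_peaks (FDR limit 0.01, min_quant 0.9) and listed genes with peaks2genes. The study names Bowtie2 among its tools. The annotation and genome build are not given in the sources used here. The deposited score of a peak or gene line, on a scale set by the peak caller, was used as given, and so were the deposited start and end positions. The lists hold no counts, so the depth behind a score cannot be read from them and no interval or floor was computed. Dam libraries and tracks were not analysed here.

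Members and lists were chosen with earlier results of these data known. Lines of transcript names (450 to 472 per replicate) were left out. All 186 members matched RefSeq (Release 6 plus ISO1 MT), used for names, kinds and neighbours, and each had a peak with its listed score within 1 kb of that position in every replicate. Members named are the 10 highest of each class, the 3 just inside and 3 just outside the limit, the 5 with the most peaks, the 3 widest, the 3 with the largest SD, neighbours of genes the study names, and those in its L4 lists. Others were named for their neighbours after their values were seen. Means and SDs run over 3 replicates. Correlations used scipy 1.17.1, with numpy 2.4.6, matplotlib 3.10.9 and Python 3.11.15. The rules were tested on simulated lists, where each gene had 1 peak at the same place in every replicate. Several peaks per gene, best peaks that move between replicates and coding genes near the 1 kb border were not simulated. Alternatives were other score limits, fewer replicates, other symbol rules, other distances and overlaps, FDR below 0.001 and each replicate left out. Motifs and GATC sites were not counted, as no genome sequence was used here.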

Additional observations from a re-analysis of the deposited data

How the results depend on the processing

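With a limit of 3 in place of 2.5, 117 CR genes remained, 87 with a shared score and 30 with a peak of their own. With a score above 2.5 in at least 1 replicate, the genes with a peak of their own numbered 72, and with coding genes counted up to 5 kb away they numbered 26. Overlap of the best peaks between replicates was 88.2% when 50% of each peak had to be shared and 48.9% for identical borders. The median width was 1494 bp over peaks with FDR below 0.001 and 1300 bp over genes above 3. Leaving out 1 replicate at a time gave 188 to 221 CR genes, 141 to 165 with a shared score and 47 to 56 with a peak of their own. The mean score was then 3.46 to 3.55, and the highest values came without replicate 3. All 186 genes were kept each time by construction, since a gene above the limit in every replicate is above it in any 2. The number of CR genes could therefore not fall. CR32745 alone changed class when any coding gene within 1 kb counted, a choice made after seeing the data (140 and 46). The other alternatives kept these counts within 1.5 times. No paired analysis was possible because the samples form 1 group. The lists hold only called peaks and no read counts, so weaker binding at a CR gene was not detectable from them, and binding cannot be assigned to a CR gene or its neighbour.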

Other observations

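Another 26 listed symbols hold CR and 5 digits after a prefix of another kind, and 14 of them scored above 2.5 in all 3 replicates. All 14 are tRNA genes, and they carry only 10 distinct sets of scores. The highest, tRNA:CR30225 and tRNA:CR30326, had 4.78, 4.73 and 4.86 in replicates 1, 2 and 3, the scores of hu li tai shao (hts), the fly adducin gene. tRNA:CR31331 and tRNA:CR31588 shared 1 peak with each other and no coding gene, with 3.46, 3.35 and 3.26.

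The called peak nearest to the homeobox gene pdm3 in replicates 1 and 2 lies at lncRNA genes. It runs on chromosome 2R from 8242706 to 8245125, within 1 kb of CR44276, CR44445 and CR44446, and scored 3.40 and 3.38. Replicate 3 also had a peak at that site, from 8243122 to 8245125, with 3.45. In that replicate a further call from 8245642 to 8246712 lay nearest to pdm3, scored 1.79 and is within 1 kb of CR44446. The distance of these peaks from pdm3 is not given here.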
